A study of Caenorhabditis elegans with 14 samples.

Results

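The 33 genes described here encode the subunits of the proteasome and were chosen by name: every gene of the tables whose name begins with pas, pbs, rpt or rpn followed by a number, 33 of 46856 genes. The proteasome is the barrel-shaped protease that degrades proteins tagged with ubiquitin. Its 20S core has outer rings of alpha subunits (the 7 pas genes) and inner rings of beta subunits (the 7 pbs genes). The proteolytic sites lie in the beta subunits encoded by pbs-1, pbs-2 and pbs-5, which cut after acidic, basic and hydrophobic residues, in that order. The 19S regulatory particle recognises and unfolds substrates. Its base holds the 6 ATPases of the rpt genes together with the scaffolds rpn-1 and rpn-2 and the ubiquitin receptors rpn-10 and rpn-13, and its lid holds the other 9 rpn genes, among them the deubiquitinase rpn-11 and its partner rpn-8. In worms, SKN-1 is known to raise proteasome genes when the proteasome is impaired, and rpn-6.1 is known for its link to long life in animals without a germline.

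RNA was sequenced from whole Caenorhabditis elegans, in 7 groups of 2 libraries each. The study's results give the stage at collection as L4 to young adult, and its methods as young adult to gravid. All 7 groups carried rrf-3(pk1426), which makes animals more sensitive to RNA interference, and all fed on the bacterial strain HT115 with either an RNAi clone or the empty vector. The group hsf-1i (HS) carried rrf-3(pk1426);daf-2(e1368), grew on hsf-1 RNAi at 20 °C and was then held at 33 °C for 2 h (heat shock, HS). rIIS-C (HS) had the same genotype and heat shock on the empty vector, and C (HS) was rrf-3(pk1426) alone with heat shock on the empty vector. skn-1i and daf-16i were rrf-3(pk1426);daf-2(e1368) on skn-1 or daf-16 RNAi at 20 °C, rIIS-C was that genotype on the empty vector, and C was rrf-3(pk1426) on the empty vector, both at 20 °C. daf-2 encodes the insulin receptor, so that e1368 gives reduced insulin signaling (rIIS). Reads come from all tissues of whole animals, so fewer cells of a type and less RNA per cell cannot be told apart.

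Libraries held 4681170 to 22767301 exon reads, of which the 33 genes took 0.443% to 0.760%. Levels below are CPM, the read count of a gene relative to its library's total after scaling between libraries by the TMM method, unless RPKM, the count relative to exon length and mapped reads, is named. TMM factors ran from 0.658 to 0.779 in skn-1i, hsf-1i (HS) and C (HS) and from 1.15 to 1.63 in the other 4 groups. Cytosolic ribosomal protein genes took 17.2% to 22% of exon reads in those 6 libraries, against 7.87% to 11.5% in the other 8. The choice of scaling therefore moves every fold change between these sets. Exon-junction reads split the 12 libraries outside C (HS) into 6 with 9.39% to 9.89% and 6 with 22.6% to 26.3% of exon reads, with 1 library of each kind in each group. The 2 C (HS) libraries had 14.3% and 16.7%, and could be put in neither class. Intron reads made up 12.8% of gene reads in skn-1i replicate 2, against 2.91% to 5.62% in the other 13 libraries. The RNAi target skn-1 stood at 26.2 and 25.3 CPM in skn-1i, against 153 and 102 in rIIS-C, and hsf-1 at 13.6 and 13.9 CPM in hsf-1i (HS), against 34.2 and 42 in rIIS-C (HS). daf-16 stood at 51.7 and 40.7 CPM in daf-16i, against 85.9 and 49.9 in rIIS-C, a difference that edgeR did not call (adjusted p = 0.283). The heat-inducible hsp-16.2, read as a check of the heat shock label and chosen after its values were seen, stood at 22.2 and 12 CPM in rIIS-C (HS), against 2823 and 2314 in C (HS). In rIIS-C (HS) it was thus no higher than in rIIS-C at 20 °C (31.7 and 54.7 CPM), so the 2 libraries labelled rIIS-C (HS) lacked this sign of heat shock.

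All 33 genes are annotated as protein-coding in WBcel235, all passed the filter on low counts, and at least 98.0% of the exon reads of each were unique to it. Per length, in C, they ran from 344 RPKM for the alpha subunit pas-5 down to 89.5 RPKM for the ubiquitin receptor rpn-13, with rpn-6.2, the paralog of rpn-6.1, far below at 23.3. The 7 highest in C were all core subunits, with pas-5, pas-2, pbs-4 and pas-3 at the top. The catalytic pbs-5, pbs-1 and pbs-2 were at places 4, 3 and 6 of 33 in C (HS), against 16, 22 and 26 in C. rpn-8 was at place 31 in C (HS), against 8 in C, and the ATPase gene rpt-4 was at place 30 in C (HS), against 10 in C. The catalytic genes thus stood higher in the order in C (HS), and rpn-8 and rpt-4 lower.

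Across libraries rpn-6.1 held 63.3 to 127 RPKM and rpn-6.2 held 3.87 to 35.1 RPKM. rpn-6.1 was the higher of the pair in every library. In C (HS) rpn-6.2 had 8.86 and 3.87 RPKM, its lowest values in the 14 libraries, against 20.4 and 26.3 in C.

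**Figure D1:**
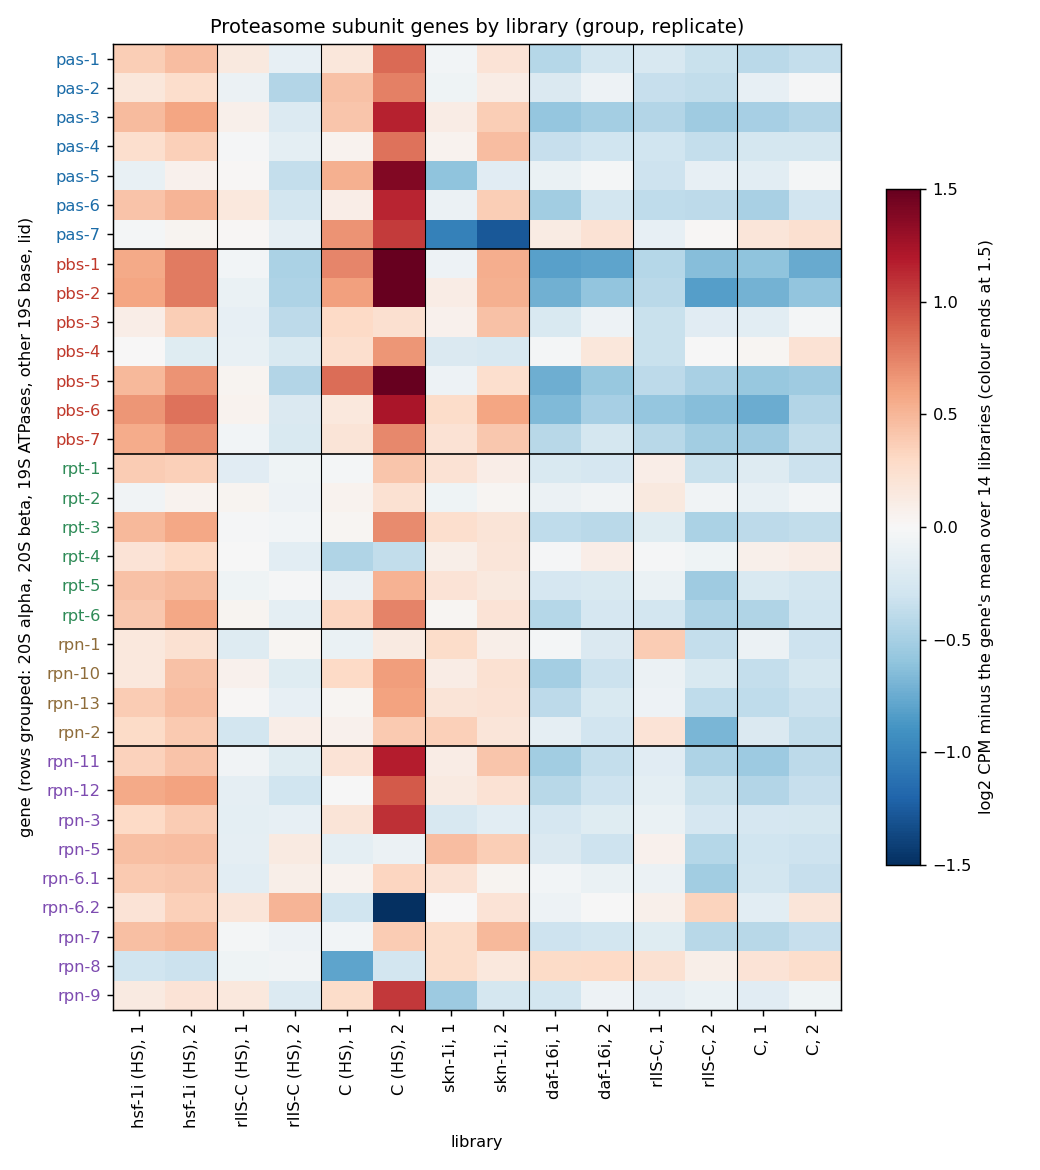
Each row is 1 of the 33 proteasome subunit genes and each column 1 of the 14 libraries. Colour is log2 CPM (TMM-scaled) minus the gene's mean over the 14 libraries, ending at 1.5 in each direction. C (HS) replicate 2 is the reddest column, hsf-1i (HS) and skn-1i are mostly red with pas-7 blue in skn-1i, and the columns at 20 °C with daf-16 RNAi or the empty vector are mostly blue; without TMM scaling these colours shift.

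The comparison of C (HS) with C asks what heat shock does to the subunits in animals with intact insulin signaling. With TMM scaling 21 of the 33 genes rose and 3 fell (adjusted p under 0.05 in edgeR), whereas scaling by library size alone gave 3 higher and 12 lower. Of all 14084 genes tested, 27.4% rose and 24.9% fell with TMM, and 7.07% rose and 52.1% fell with library size alone. The median log2 fold change of the members was 0.74, against 0.03 for all genes, and with library size alone it was -0.26 against -0.97. Under both scalings 30 of the 33 lay above the median of all genes. A change of scaling shifts all genes nearly alike, so it can hardly alter this count. All 7 alpha genes rose with TMM (median 0.93), as did 5 of 7 beta genes (1.37), 2 of 6 ATPase genes (0.49), 2 of 4 other base genes (0.61) and 5 of 9 lid genes (0.56). The number higher was 11 without C replicate 1, and the number lower was 1 without C replicate 1 and 1 without C replicate 2.

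The catalytic genes led. pbs-1 (chromosome IV, 1708904 to 1709742, minus strand) had 241 and 590 CPM in C (HS), against 95.4 and 85.8 in C. Both C (HS) libraries lay above both C libraries, and replicate 2 was far above replicate 1. On the log2 scale pbs-1 was up by 2.20 (SE 0.35, adjusted p = 0.000276 in edgeR), a 4.58-fold rise, and by 1.42 without C (HS) replicate 2. pbs-2 (chromosome I, 12967388 to 12968279, minus strand) had 214 and 479 CPM in C (HS), against 85.2 and 92.9 in C, up by 1.96 on the log2 scale (SE 0.32, adjusted p = 0.000331 in edgeR). pbs-5 (chromosome I, 14719356 to 14720462, minus strand) had 312 and 493 CPM in C (HS), against 118 and 121 in C, up by 1.75 on the log2 scale (SE 0.25, adjusted p = 0.000128 in edgeR). Without C (HS) replicate 2 pbs-2 was up by 1.27. These are the 3 proteolytic subunits, and they were also the 3 called higher with library size alone (1.19, 0.96 and 0.75). Each of the 3 passed the test in the same direction in all 14 alternative settings. Other large rises with TMM were those of pbs-6, a beta subunit without a proteolytic site (1.37, or 0.74 without C (HS) replicate 2), pas-3 (1.31) and rpn-11 (1.24). With library size alone their log2 fold changes were 0.36, 0.30 and 0.23 and did not pass.

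The lid genes rpn-8 and rpn-6.2 and the ATPase gene rpt-4 went the other way. rpn-8 (chromosome I, 4175323 to 4177130, plus strand) had 97.8 and 140 CPM in C (HS), against 194 and 203 in C. The groups did not overlap, and on the log2 scale the change was -0.74 (SE 0.20, adjusted p = 0.00689 in edgeR). It was lower under every scaling and passed the test in 13 of 14 alternatives, missing it with the 2 groups fitted alone (adjusted p = 0.0818). rpt-4 (chromosome II, 42363 to 46132, minus strand) had 141 and 149 CPM in C (HS), against 204 and 209 in C, a log2 change of -0.51 (SE 0.17, adjusted p = 0.0242 in edgeR) that passed in 10 of 14 alternatives. It did not pass without C replicate 1 (-0.53, adjusted p = 0.0957) or C replicate 2 (-0.49, adjusted p = 0.119). The span of rpt-4 overlaps the annotated genes nfyc-1 and rpoa-49, so some of its reads may not be its own. rpn-6.2 (chromosome III, 9000097 to 9001973, minus strand) had 20.2 and 8.72 CPM in C (HS), against 22.2 and 28.1 in C. Its log2 change of -0.79 (SE 0.31, adjusted p = 0.0470 in edgeR) passed in 8 of 14 alternatives, and it was lost without C (HS) replicate 2 (-0.32, adjusted p = 0.251), C replicate 1 (-0.96, adjusted p = 0.0696) and C replicate 2 (-0.61, adjusted p = 0.236), while without C (HS) replicate 1 it was -1.54. Its paralog rpn-6.1, with 152 and 183 CPM in C (HS), against 121 and 115 in C, did not pass with TMM (0.50, SE 0.20, edgeR adjusted p = 0.0513), passed as higher in DESeq2 (adjusted p = 0.0350) and passed as lower with library size alone (-0.50, edgeR adjusted p = 0.0300), so its direction depends on the scaling.

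The 2 C (HS) libraries differed from each other. Replicate 2 was above replicate 1 in 31 of 33 members, by a median of 0.53 on the log2 scale and by 1.29 for pbs-1. Without replicate 1 the members' median log2 fold change of C (HS) over C was 0.95, and without replicate 2 it was 0.40. Marker levels also moved with this comparison: the 7 muscle genes summed to 5056 to 7881 CPM in C (HS), against 2418 to 2566 in C, and the 14 sperm genes to 1911 to 1970 CPM, against 970 to 1092. The 8 intestine genes summed to 40507 to 61306 CPM in C (HS), against 27013 to 30725 in C, the 7 hypodermis and cuticle genes to 6431 to 13269, against 3789 to 3943, and the 9 neuron genes to 248 to 260, against 180 to 181. None of these markers was at 0 in either group. Germline and early embryo sums overlapped. In edgeR 4 of the muscle genes were higher and 3 lower, and 7 of the sperm genes higher and 2 lower. Of the 9 neuron genes 2 were higher and 4 lower, with a median log2 fold change of -0.60. Of the 7 hypodermis and cuticle genes 1 was higher and 1 lower, with a median of -0.51. Of the 8 intestine genes 2 were higher and 1 lower. Of all genes 27.4% were higher and 24.9% lower. The part of these cell types in the result was not tested.

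**Figure D2:**
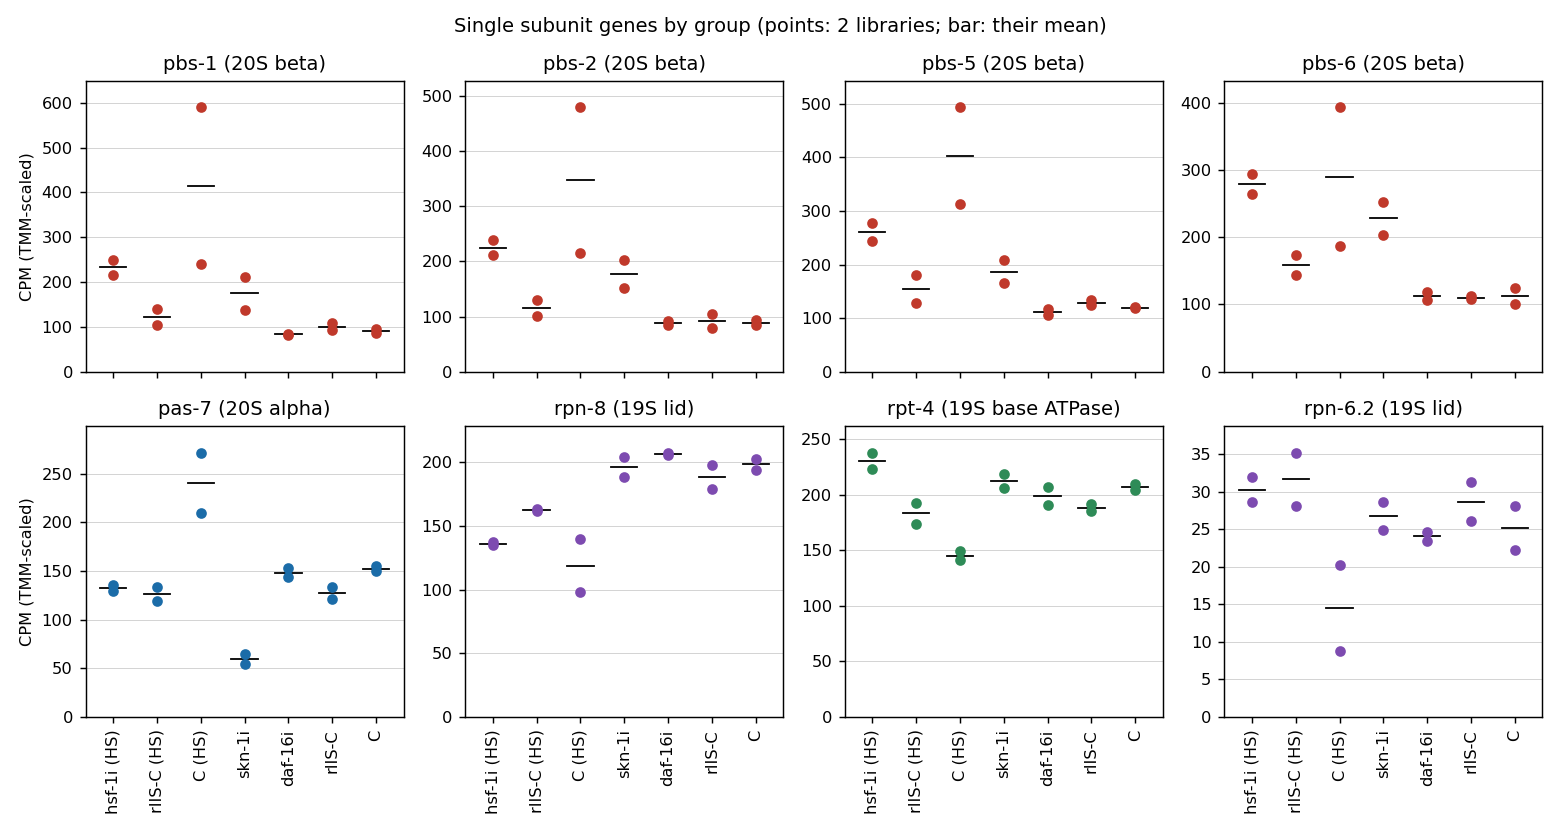
CPM (TMM-scaled, axes starting at 0) of 8 subunit genes in the 7 groups. Points are the 2 libraries of a group and the bar is their mean. The catalytic genes pbs-1, pbs-2 and pbs-5 peak in C (HS), pas-7 is lowest in skn-1i, and rpn-8, rpt-4 and rpn-6.2 are lowest on average in C (HS).

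Ratios within a library need no scaling between libraries. The mean RPKM of pbs-1, pbs-2 and pbs-5 over that of the other 4 beta genes was 1.18 and 1.68 in C (HS), against 0.668 and 0.586 in C. It was 0.841 and 0.720 in rIIS-C (HS), against 0.826 and 0.660 in rIIS-C, which overlap, and 0.937 and 0.996 in hsf-1i (HS). C (HS) thus held the highest values of this ratio, and no library outside it passed 1. The mean RPKM of the 14 core genes over that of the 19 regulatory particle genes was 2.18 and 2.48 in C (HS), against 1.57 and 1.65 in C, and 1.32 to 1.75 in all libraries outside C (HS). In every group outside C (HS) this ratio was higher in the library of the high junction class, such as 1.60 against 1.32 in rIIS-C. The C (HS) libraries were in neither class, and the part of this in their ratio was not tested. The 7 beta over the 7 alpha genes gave 0.908 to 1.03 in skn-1i, hsf-1i (HS) and C (HS), and 0.764 to 0.817 in the other 4 groups, with no overlap. With 2 libraries a group, a permutation test of a single ratio cannot go below p = 0.333, so none was run.

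As sums, the 14 core genes reached 2340 and 3949 RPKM in C (HS), against 2955 and 3226 in C. The 10 base genes reached 720 and 970 RPKM in C (HS), against 1289 and 1298 in C, and the 9 lid genes 734 and 1195 RPKM, against 1273 and 1348. On this measure, which is relative to mapped reads and takes no TMM factor, the base and lid were lower in both C (HS) libraries, while the core overlapped. With TMM the median log2 fold changes were 0.49 for the ATPase genes, 0.61 for the other base genes and 0.56 for the lid genes. The direction for base and lid thus depends on the scaling.

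**Figure D3:**
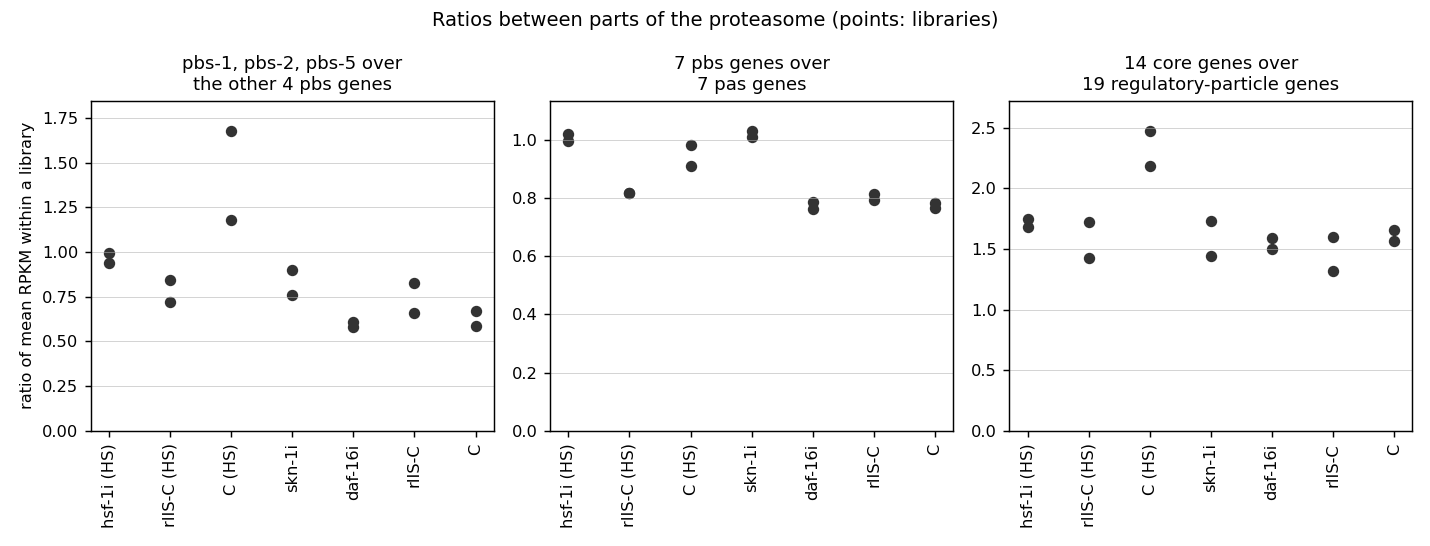
Ratios of mean RPKM within each library, axes starting at 0, for the catalytic over the other beta genes (left), all beta over all alpha genes (middle) and all core over all regulatory particle genes (right). Each point is a library. The left and right ratios are highest in C (HS), and the middle one is higher in skn-1i, hsf-1i (HS) and C (HS) than in the other 4 groups.

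In a scaling chosen after seeing the data, each library was set to the summed reads of the 33 members, which compares the members with each other. For heat shock in C this left 5 higher (pbs-1, pbs-2, pbs-5, pbs-6 and pas-3) and 4 lower (rpn-8, rpn-6.2, rpt-4 and the ATPase gene rpt-2). pbs-1 was at 1.34 (SE 0.25, edgeR adjusted p = 0.000888) and rpn-8 at -1.52 (SE 0.17, adjusted p = 3.71e-05) in that scaling.

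The comparison of rIIS-C (HS) with rIIS-C asks the same of daf-2 animals. None of the 33 passed edgeR's test, none had an unadjusted p under 0.05, and none passed in DESeq2, while 2.21% of all genes passed in edgeR. The members' median was 0.17, against -0.03 for all genes, and it was -0.13 with library size alone. pbs-1 had 141 and 104 CPM in rIIS-C (HS), against 108 and 93.3 in rIIS-C, and the groups overlapped. pbs-2 had 130 and 101 CPM in rIIS-C (HS), against 105 and 78.9 in rIIS-C, and pbs-5 had 180 and 129, against 133 and 125. The groups overlapped in 22 of 33 members, and rIIS-C (HS) lay apart above in 10 and below in 1, against 23% and 21.6% of all genes. Within the class of low junction reads the members' median log2 difference was -0.03, and within the class of high junction reads 0.33. With that class as a block, pbs-6 (0.52, adjusted p = 0.0111) and pas-3 (0.42, adjusted p = 0.0328) passed.

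Whether the heat shock response differed between the genotypes was tested as an interaction. With TMM scaling the response of rIIS-C was below that of C for 3 members and above it for none, whereas library size alone gave none below and 4 above (rpn-5, rpt-4, rpn-8 and rpn-6.2). Of all genes, 10.6% had a response below and 9.97% above with TMM, and 2.79% below and 27.5% above with library size alone. The 3 were the catalytic genes: pbs-1 with a difference of -1.91 (SE 0.49, edgeR adjusted p = 0.0178), pbs-2 with -1.62 (SE 0.45, adjusted p = 0.0244) and pbs-5 with -1.49 (SE 0.35, adjusted p = 0.0125). Their sign was the same in all 18 alternatives, and they passed in 11, 9 and 11 of these. With library size alone the 3 differences were -1.21, -0.91 and -0.79 and did not pass (edgeR adjusted p = 0.0680, 0.122 and 0.0984). Without C (HS) replicate 2 pbs-1 was at -1.12 (adjusted p = 0.0338) and pbs-2 at -0.93 (adjusted p = 0.0532). Scaled to the members' own reads, the same 3 passed below (-1.20, -0.92 and -0.85) and rpn-8 (1.16) and rpt-4 (1.05) passed above. No member passed below with C replicate 1, C replicate 2 or rIIS-C (HS) replicate 2 left out, and 20 did with C (HS) replicate 1 left out. Since the libraries labelled rIIS-C (HS) lacked raised hsp-16.2, the genotype and the strength of the heat shock cannot be told apart here.

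rIIS-C (HS) set against C (HS) shares these libraries. With TMM scaling 7 members were lower and 0 higher, whereas library size alone gave 0 lower and 5 higher. Among 13149 genes tested, 14.5% were lower and 10.4% higher with TMM, and 3.57% lower and 38.7% higher with library size alone. The members' median was -0.61, against -0.07 for all genes. With TMM as with library size alone, 29 of 33 lay below the median of all genes, a count that rescaling can hardly change. All 7 called with TMM were core genes: pbs-1 (-1.8, SE 0.40, edgeR adjusted p = 0.0181), pbs-2 (-1.62), pbs-5 (-1.43), pas-5 (-1.22), pas-7 (-0.98), pas-3 (-0.94) and pas-2 (-0.92). pbs-1 stood at 141 and 104 CPM in rIIS-C (HS), against 241 and 590 in C (HS), without overlap. pas-5 stood at 239 and 185 CPM in rIIS-C (HS), against 341 and 615 in C (HS), also without overlap. None of these 7 passed with library size alone, where pbs-1 was at -0.95 (edgeR adjusted p = 0.0935). Of the 19 regulatory particle genes none passed with TMM in edgeR, and rpn-6.2 had the highest value of all members (1.04, SE 0.41, adjusted p = 0.0954). The 5 called higher with library size alone were all of the regulatory particle: rpn-6.2 (1.94, edgeR adjusted p = 0.00645), rpn-8 (1.26), rpt-4 (1.15), rpn-5 (0.94) and rpn-1 (0.71). In DESeq2 rpn-11 (-0.91, adjusted p = 0.0365) and rpn-3 (-0.88, adjusted p = 0.0373) passed as lower and rpn-6.2 (1.08, adjusted p = 0.0444) as higher. Without either rIIS-C (HS) library 0 members were lower, and without C (HS) replicate 1 there were 23. Without C (HS) replicate 2 pbs-1 was at -0.98 and pbs-2 at -0.89. Muscle genes summed to 2860 to 3153 CPM in rIIS-C (HS), against 5056 to 7881 in C (HS), hypodermis and cuticle genes to 3578 to 3817, against 6431 to 13269, neuron genes to 166 to 182, against 248 to 260, and sperm genes to 1074 to 1782, against 1911 to 1970. The 11 early embryo genes were higher in rIIS-C (HS), at 82.3 to 105 CPM, against 17.5 to 31.4 in C (HS), where sdz-10 was at 0. Germline and intestine sums overlapped. In edgeR 2 of 7 muscle markers were higher and 3 lower, and of the 9 neuron markers 1 was higher and 2 lower. Of the 14 sperm markers 1 was higher and 2 lower, and of the 7 hypodermis and cuticle markers 0 and 1. Of the 6 early embryo markers tested 3 were higher and 0 lower. The part of these cell types in the result was not tested.

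The comparison of skn-1i with rIIS-C asks which subunits depend on SKN-1 under reduced insulin signaling. With TMM scaling 18 of the 33 rose on skn-1 RNAi and 1 fell, whereas library size alone gave 0 higher and 24 lower. Of all 13892 genes tested, 25.7% rose and 30.6% fell with TMM, and 8% rose and 63.2% fell with library size alone. The median of the members was 0.43, against -0.13 for all genes, and -0.52 against -1.10 with library size alone. Under both, 30 of 33 lay above the median of all genes, a count that rescaling can hardly change. By part, 6 of 7 beta genes (median 0.78), 4 of 7 alpha genes (0.39), 3 of 6 ATPase genes (0.37), 1 of 4 other base genes (0.38) and 4 of 9 lid genes (0.41) rose with TMM.

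pbs-6 (chromosome III, 8243223 to 8244092, minus strand) had 204 and 252 CPM in skn-1i, against 112 and 108 in rIIS-C, the largest rise (1.05, SE 0.17, edgeR adjusted p = 0.000378). pbs-2 had 151 and 202 CPM in skn-1i, against 105 and 78.9 in rIIS-C (0.95, SE 0.20, adjusted p = 0.00200), and pbs-1 had 138 and 212, against 108 and 93.3 (0.80, SE 0.22, adjusted p = 0.00809). In none of these 3 did the groups overlap. pbs-5 had 165 and 209 CPM in skn-1i, against 133 and 125 in rIIS-C (0.54, SE 0.18, adjusted p = 0.0266). The log2 fold changes of pbs-1, pbs-2 and pbs-5 were below 0 with library size alone, whereas that of pbs-6 stayed above 0 in all 16 alternatives, though with library size alone it was 0.09 and did not pass (adjusted p = 0.671). Without skn-1i replicate 2 pbs-1 was at 0.45 (adjusted p = 0.123) and pbs-5 at 0.36 (adjusted p = 0.214), and without rIIS-C replicate 2 pbs-5 was at 0.49 (adjusted p = 0.0882).

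pas-7 alone fell. This alpha subunit (chromosome II, 10099007 to 10099853, minus strand) had 65.1 and 54.7 CPM in skn-1i, against 121 and 134 in rIIS-C, and 144 and 153 in daf-16i. The skn-1i libraries were the lowest of the 14, with no overlap with any group. Over rIIS-C it changed by -1.09 on the log2 scale (SE 0.15, adjusted p = 9.46e-05 in edgeR), and it passed in that direction in all 16 alternatives, between -2.11 and -0.97. Relative to the median member of the same library it stood at -1.66 in skn-1i on average, against -0.09 in rIIS-C. Against daf-16i, too, it was lower in skn-1i (-1.31, SE 0.15, adjusted p = 2.18e-05). Of the pair rpn-6.1 and rpn-6.2, neither passed in edgeR with TMM: rpn-6.1 had 170 and 150 CPM in skn-1i, against 138 and 102 in rIIS-C (0.42, SE 0.17, adjusted p = 0.0534), and rpn-6.2 had 24.9 and 28.7, against 26.1 and 31.2. With library size alone both were lower in skn-1i, rpn-6.1 at -0.52 (edgeR adjusted p = 0.00692) and rpn-6.2 at -1.09 (adjusted p = 0.000918), and in DESeq2 rpn-6.1 passed as higher (adjusted p = 0.0224).

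The count of risers rested on single libraries: it was 7 without skn-1i replicate 2 and 9 without rIIS-C replicate 2. skn-1i replicate 2 is the library with 12.8% intron reads, against 3.79% in replicate 1, and the part of this in the result was not tested. Within the class of low junction reads the members' median log2 difference was 0.28, and within the high class 0.60. Scaled to the members' own reads, 5 were higher (pbs-6, pbs-2, pbs-7, pas-3 and rpn-7) and 5 lower (pas-7, rpn-9, pas-5, rpt-2 and rpn-3). skn-1i set against daf-16i, with 28.1% of all genes higher and 30.5% lower, gave 19 members higher and 1 lower with TMM scaling, and 0 higher and 17 lower with library size alone, where 10.2% of all genes were higher and 56.5% lower. The largest were pbs-1 (1.08, SE 0.22, edgeR adjusted p = 0.00128), pbs-6 (1.02) and pbs-2 (1.00), which with library size alone were 0.20, 0.16 and 0.13 and did not pass. The number higher was 10 without skn-1i replicate 2 and 10 without daf-16i replicate 1. Markers moved with the knockdown: muscle genes summed to 11430 to 11896 CPM in skn-1i, against 1325 to 1728 in rIIS-C, intestine genes to 78291 to 92550, against 18291 to 51040, and sperm genes to 1922 to 3085, against 531 to 633. Hypodermis and cuticle genes summed to 8427 to 10461 CPM in skn-1i, against 2178 to 3072 in rIIS-C, and neuron genes to 437 to 453, against 162 to 190, and none of these 5 lists had a marker at 0. Early embryo genes were lower, at 25.5 to 28.2 CPM in skn-1i (sdz-10, sdz-19 and end-3 at 0), against 79.7 to 103 in rIIS-C (end-1 at 0), and germline sums overlapped. The sdz genes of that list are named as SKN-1-dependent, so for them the knockdown itself and fewer embryos cannot be told apart. In edgeR 5 of 7 muscle, 4 of 8 intestine and 10 of 14 sperm markers were higher and 1 of each list was lower. Of the 9 neuron markers 3 were higher and 3 lower, and of the 7 hypodermis and cuticle markers 5 and 0. Of the 6 early embryo markers tested 0 were higher and 2 lower. Of all genes 25.7% were higher and 30.6% lower. The part of these cell types in the result was not tested.

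The comparison of hsf-1i (HS) with rIIS-C (HS) asks for dependence on HSF-1. The heat-inducible hsp-16.2 stood at 0.533 to 1.37 CPM in hsf-1i (HS), against 12 to 22.2 in rIIS-C (HS). rIIS-C (HS) thus lacked the sign of heat shock seen in C (HS). In hsf-1i (HS) low hsp-16.2 cannot serve as this check, since knockdown of HSF-1, the factor that heat activates, may itself keep this gene low. Dependence with and without a response to heat shock cannot be told apart here. With TMM scaling 17 of the 33 rose on hsf-1 RNAi and 0 fell, whereas library size alone gave 0 higher and 15 lower. Of all genes 18.8% rose and 19.3% fell with TMM, and 5.27% rose and 53.3% fell with library size alone. The median of the members was 0.48, against -0.05 for all genes, and -0.33 against -0.85 with library size alone. Under both, 31 of 33 lay above the median of all genes, the exceptions with TMM being rpn-8 and rpn-6.2. Rescaling can hardly change this count. As on skn-1 RNAi, 6 of 7 beta genes rose with TMM (median 0.76), along with 2 of 7 alpha genes (0.40), 4 of 6 ATPase genes (0.50), 1 of 4 other base genes (0.39) and 4 of 9 lid genes (0.46). Each comparison had its own control libraries, but both came from the same fit and shared its TMM scaling and estimate of spread. With library size alone no member rose in either.

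pbs-2 had 211 and 239 CPM in hsf-1i (HS), against 130 and 101 in rIIS-C (HS) (0.96, SE 0.20, edgeR adjusted p = 0.00314). pbs-1 had 216 and 250 CPM in hsf-1i (HS), against 141 and 104 in rIIS-C (HS) (0.93, SE 0.21, adjusted p = 0.00579). pbs-6 had 265 and 294 CPM in hsf-1i (HS), against 174 and 144 in rIIS-C (HS) (0.82, SE 0.17, adjusted p = 0.00339). The 3 log2 fold changes were above 0 in all 16 alternatives, but with library size alone they were 0.15, 0.12 and 0.01 and none passed (adjusted p = 0.448, 0.610 and 0.958 in edgeR). The groups of all 3 were apart, with the lowest hsf-1i (HS) library above the highest rIIS-C (HS) library. rpn-12, a lid subunit, had 181 and 186 CPM in hsf-1i (HS), against 112 and 99.6 in rIIS-C (HS), the largest rise of the regulatory particle with TMM (0.80, SE 0.14, adjusted p = 0.00112), while with library size alone it was at -0.0043 (adjusted p = 0.982). pas-7, which fell on skn-1 RNAi, had 129 and 136 CPM in hsf-1i (HS), against 133 and 120 in rIIS-C (HS), and did not pass with TMM (0.07, SE 0.15, adjusted p = 0.738), but with library size alone it was lower (-0.73, adjusted p = 0.00521). rpn-8 had 138 and 135 CPM in hsf-1i (HS), against 162 and 163 in rIIS-C (HS), and did not pass with TMM either (-0.25, SE 0.13, adjusted p = 0.162), but was lower with library size alone (-1.05, adjusted p = 7.80e-05). It was the lowest member relative to the rest here, and scaled to the members' own reads it passed (-0.71, adjusted p = 0.00145), together with rpt-2 (-0.44). rpn-6.1 had 192 and 194 CPM in hsf-1i (HS), against 131 and 156 in rIIS-C (HS) (0.44, SE 0.17, adjusted p = 0.0610), and it was lower with library size alone (-0.36, adjusted p = 0.0443) and higher in DESeq2 (adjusted p = 0.0347). Without rIIS-C (HS) replicate 2 pbs-1 was at 0.72 (adjusted p = 0.0568), and without hsf-1i (HS) replicate 2 at 0.82 (adjusted p = 0.0525).

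The number of members that rose on hsf-1 RNAi was 4 without rIIS-C (HS) replicate 2, 4 without hsf-1i (HS) replicate 2 and 10 without hsf-1i (HS) replicate 1. The members' median was 0.46 within the class of low junction reads and 0.50 within the high class. Muscle markers summed to 8590 to 8962 CPM in hsf-1i (HS), against 2860 to 3153 in rIIS-C (HS), with 5 of 7 higher and none lower, and sperm markers to 3309 to 4138, against 1074 to 1782, with 11 of 14 higher. Intestine markers summed to 109077 to 125366 CPM in hsf-1i (HS), against 40664 to 68485 in rIIS-C (HS), hypodermis and cuticle markers to 8875 to 8904, against 3578 to 3817, and neuron markers to 522 to 523, against 166 to 182. None of these markers was at 0 in either group. Early embryo markers were lower in sum, at 53.3 to 60.5 CPM in hsf-1i (HS), against 82.3 to 105 in rIIS-C (HS). In hsf-1i (HS) sdz-19 and end-3 were at 0. Of the 6 early embryo markers tested, however, 2 were higher and 1 lower, with a median log2 fold change of 1.22. Of the 9 neuron markers 4 were higher and 1 lower, and of the 8 intestine markers 3 and 1. Of the 7 hypodermis and cuticle markers 4 were higher and 0 lower. Of all genes 18.8% were higher and 19.3% lower. Germline sums overlapped. The part of these cell types in the result was not tested.

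For reduced insulin signaling itself, and for daf-16 RNAi, no subunit passed edgeR's test. For rIIS-C against C none of the 33 passed, none had an unadjusted p under 0.05 and none passed in DESeq2, while 11% of all genes passed. The log2 fold changes ran from -0.28 to 0.26 with a median of 0.05, against 0.06 for all genes. Without rIIS-C replicate 2, 1 gene (rpn-1, 0.58, adjusted p = 0.0441) passed. The members' median was 0.17 within the class of low junction reads and -0.10 within the high class, so the sign differed between the classes. For daf-16i against rIIS-C none passed in edgeR, none had an unadjusted p under 0.05 and none passed in DESeq2, while 6.07% of all genes passed. Here the range was -0.27 to 0.23 and the median -0.04, against -0.03. rpn-6.1 had 138 and 102 CPM in rIIS-C, against 121 and 115 in C (0.02, SE 0.17, edgeR adjusted p = 0.961). In daf-16i it had 143 and 137 CPM, against the same rIIS-C values (0.22, SE 0.17, adjusted p = 0.561). The catalytic pbs-1 stood at 108 and 93.3 CPM in rIIS-C, against 95.4 and 85.8 in C (0.15, SE 0.21, adjusted p = 0.721).

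**Figure D4:**
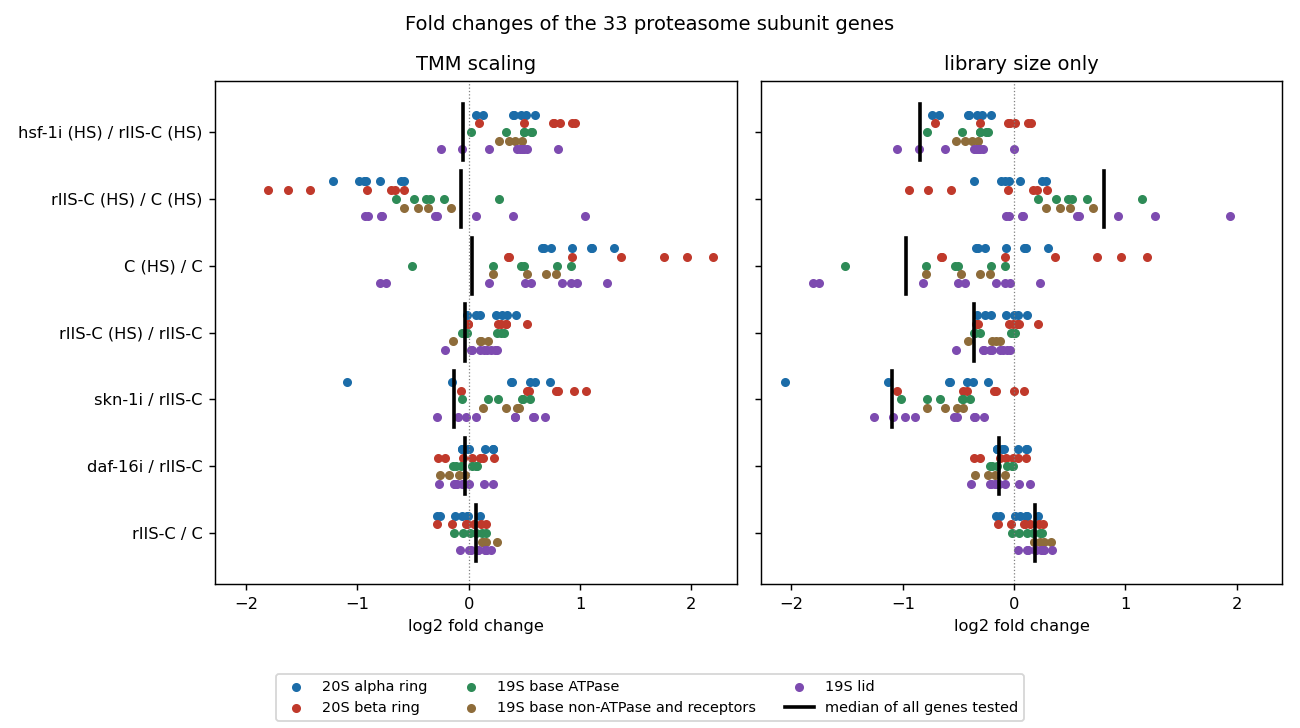
Log2 fold changes of the 33 genes in 7 comparisons (rows, first-named group over the second), with TMM scaling on the left and scaling by library size alone on the right. Points are genes coloured by part of the proteasome, and the black bar is the median of all genes tested. The members' median turns round between the panels for hsf-1i (HS), C (HS), skn-1i, and rIIS-C (HS) over C (HS) or over rIIS-C. Some single genes keep their direction, such as pbs-1, pbs-2, pbs-5 and rpn-8 in C (HS) and pas-7 in skn-1i.

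Genes around the proteasome were read from lists. Of all genes, the shares higher and lower were 25.7% and 30.6% in skn-1i, 18.8% and 19.3% on hsf-1 RNAi, and 27.4% and 24.9% on heat shock in C with TMM, and 8% and 63.2%, 5.27% and 53.3%, and 7.07% and 52.1% with library size alone. The counts below stand beside these shares. Of the 11 proteasome-associated genes 7 were in the tables and tested, and with TMM scaling 6 of these rose on heat shock in C and 0 fell, whereas with library size alone 3 were higher and 2 lower. dss-1, the worm counterpart of a small lid subunit that the naming rule leaves out, had 109 and 300 CPM in C (HS), against 39.7 and 41.9 in C. Its log2 change of 2.32 (SE 0.37, adjusted p = 0.000270 in edgeR, or 1.41 without C (HS) replicate 2) stands beside 2.20 for pbs-1, and it passed in all 14 alternatives. psmd-9, an assembly chaperone of the base, had 103 and 155 CPM in C (HS), against 32.9 and 33.5 in C (1.96, SE 0.26, adjusted p = 7.99e-05). aip-1, an arsenite-inducible gene whose product binds the proteasome, had 690 and 679 CPM in C (HS), against 21.5 and 22.8 in C (4.95, SE 0.23, adjusted p = 1.85e-07). In rIIS-C (HS) it had 37.5 and 30.0 CPM, against 30.8 and 37.7 in rIIS-C. With TMM scaling all 3 had a smaller response in rIIS-C than in C: -2.0 for dss-1 (SE 0.51, adjusted p = 0.0184), -1.17 for psmd-9 (SE 0.36, adjusted p = 0.0372) and -4.97 for aip-1 (SE 0.29, adjusted p = 1.94e-06). With library size alone the differences were -1.32, -0.51 and -4.30, and of these aip-1 alone passed (adjusted p = 0.0754, 0.370 and 1.30e-05 in edgeR). The calls of dss-1 and psmd-9 were lost without either C library and without the second replicate of rIIS-C (HS) or of rIIS-C, that of psmd-9 also without C (HS) replicate 2, and dss-1 was at -1.08 without that library.

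Of the 14 genes of SKN-1 surveillance and endoplasmic reticulum-associated degradation, 4 rose and 3 fell on heat shock in C with TMM, and on skn-1 RNAi 1 rose and 5 fell, skn-1 itself included. None rose in either comparison with library size alone, while 9 fell on heat shock in C and 14 on skn-1 RNAi. png-1, the peptide N-glycanase that edits the Nrf-type factor SKN-1A, had 40.0 and 55.2 CPM in C (HS), against 19.5 and 22 in C (1.2, SE 0.22, edgeR adjusted p = 0.000714), and the difference of its response, rIIS-C minus C, was -1.26 (SE 0.31, adjusted p = 0.0167). The difference did not pass without either C library or rIIS-C (HS) replicate 2 (adjusted p = 0.0525 to 0.0870), and neither value passed with library size alone (0.19, adjusted p = 0.510, and -0.57, adjusted p = 0.228, in edgeR). On skn-1 RNAi png-1 had 17.6 and 18.4 CPM in skn-1i, against 26.3 and 25.6 in rIIS-C (-0.52, SE 0.18, adjusted p = 0.0261), which missed the threshold with any of these 4 libraries left out (adjusted p = 0.0526 to 0.0908). Of 22 ubiquitin, E1 and E2 genes tested, 13 were higher and 3 lower in skn-1i than in rIIS-C, 10 higher and 1 lower on hsf-1 RNAi, and 13 higher and 1 lower on heat shock in C, all with TMM, whereas with library size alone the counts were 1 higher and 11 lower in skn-1i, 2 and 8 on hsf-1 RNAi, and 2 and 6 on heat shock in C. ubq-2, which encodes ubiquitin fused to a ribosomal protein, rose by 1.8 on hsf-1 RNAi on the log2 scale (SE 0.21, adjusted p = 9.82e-05 in edgeR) with TMM and by 0.99 with library size alone. The COP9 signalosome, a complex akin to the lid, had 2 genes higher and 4 lower of 6 in skn-1i with TMM, and 1 higher and 4 lower of 6 in hsf-1i (HS), and with library size alone 5 and 6 were lower and none higher. Of 8 chaperonin (cct) genes, 7 were higher in skn-1i with TMM and 6 on heat shock in C, whereas with library size alone none was higher and 2 were lower in each. On hsf-1 RNAi edgeR called none of the 8 with TMM (1 with an unadjusted p under 0.05, none in DESeq2), while with library size alone all 8 were lower. Of 6 cullin genes, scaffolds of ubiquitin ligases, 3 were lower in skn-1i, 1 in hsf-1i (HS) and 3 in C (HS) with TMM, and none was higher. All 6 were lower in each with library size alone. The 78 cytosolic ribosomal protein genes had a median log2 fold change of 2.04 in skn-1i over rIIS-C, 1.65 on hsf-1 RNAi and 2.13 on heat shock in C, with 75, 74 and 76 of them higher with TMM. The numbers higher with library size alone were 71, 66 and 69, so under both scalings most of the 78 were higher.

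Likeness to the members was measured over the 14 libraries as the mean absolute difference between a gene's centred log2 CPM and the members' median profile, for 8032 genes with a mean of at least 10 CPM. csn-5, the catalytic subunit of the COP9 signalosome, was the closest gene outside the members (0.0615), followed by ran-1 (0.0643), sup-46 (0.0790), ufd-1 (0.0818) and atg-4.1 (0.0831), and then by cyb-1, cap-2, mecr-1, sec-11 and T05B9.1. The median over the members was 0.164, against 0.489 over all 8032 genes, and the members themselves made the profile. Of the 33, 14 were among the 100 closest genes. Libraries share depth and scaling, so this is a description only. The 33 genes lie on chromosomes I (10), II (7), III (8), IV (3) and V (5), and 0 lie on X, which holds 13.8% of the genes with exons.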

How the data were processed

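RNA of 14 whole-worm libraries, 2 biological replicates a group, was sequenced. Per the labels and methods, the authors mapped reads to WBcel235 in CLC Genomics Workbench (CASAVA 1.8.2 is named in the submitters' processing notes) and deposited a table per library with exon read counts and RPKM, the count relative to exon length and mapped reads, for each gene. The methods name different read lengths and instruments. The authors' own comparisons were not used, nor were 6 unnamed filled columns.

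The deposited total exon read counts were tested with edgeR 4.0.16 (R 4.3.3): filterByExpr, TMM factors, quasi-likelihood test, Benjamini-Hochberg adjustment over all genes tested, threshold 0.05. The insulin, DAF-16, SKN-1 and HSF-1 comparisons came from a fit of the 12 libraries without C (HS), rIIS-C (HS) against C (HS) from the 6 heat shock libraries, and the heat shock comparisons and their difference from all 14. Levels per length are the authors' deposited RPKM. Values in every library were given for the catalytic genes, the 3 members called with the largest changes each way, the rpn-6 pair and members that moved against the rest; outside the members, genes of the lists and the 10 of most similar profile were named. The members and lists were chosen with earlier results of these data known.

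Alternatives were RLE size factors, library size alone, no low-count filter, removal of a trend with exon length, DESeq2 1.42.0, other sets of libraries in the fit, limma 3.58.1 on log2(RPKM + 1) and log2(RPKM + 0.1), blocks by replicate number or junction class, each library left out, and an unadjusted p with a fold of at least 1.5. Scripts were tested on simulated data. Totals per library were 4681170 to 22767301 exon reads. Counts cover sampling of reads, and 2 libraries a group limit the precision. Promoter sequence was not used here.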

Additional observations from a re-analysis of the deposited data

Results flagged for a closer look

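The heat shock response of rIIS-C differed from that of C by a test of the difference itself (edgeR interaction term, adjusted over all genes) for 3 subunit genes and 4 listed genes, each with a smaller log2 response in rIIS-C with TMM scaling. The 3 are 9.09% of the 33 members. Of all genes tested, 10.6% had a response below and 9.97% above, so the count of members is near the share over all genes. The log2 difference was -1.91 for pbs-1, -1.62 for pbs-2 and -1.49 for pbs-5, the catalytic subunits, and -2.0 for dss-1, -1.17 for psmd-9, -4.97 for aip-1 and -1.26 for png-1. With library size alone pbs-1 (-1.21), pbs-2 (-0.91), pbs-5 (-0.79), dss-1 (-1.32), psmd-9 (-0.51) and png-1 (-0.57) did not pass and aip-1 (-4.30) did. The libraries labelled rIIS-C (HS) held 22.2 and 12 CPM of hsp-16.2, against 2823 and 2314 in C (HS), so genotype and strength of heat shock cannot be told apart in these values. With 2 libraries a group no single library was tested for standing apart.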

How the results depend on the processing

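Scaling decided the direction of the members as a group. With library size alone, skn-1i over rIIS-C gave 0 higher and 24 lower (median -0.52), skn-1i over daf-16i 0 and 17 (-0.40), hsf-1i (HS) over rIIS-C (HS) 0 and 15 (-0.33), rIIS-C (HS) over C (HS) 5 and 0 (0.25), heat shock in C 3 and 12, 15 called in all (-0.26), and the response difference 4 and 0 (0.12). limma on log2(RPKM + 1) and on log2(RPKM + 0.1) gave the same counts as each other: 0 higher and 27 lower for skn-1i over rIIS-C (medians -0.57 and -0.58), 0 and 19 over daf-16i (-0.45 and -0.46), 0 and 11, 11 called, for hsf-1i (HS) (-0.30 and -0.31), 6 and 0 for rIIS-C (HS) over C (HS) (0.33 in both), 3 and 12, 15 called, for heat shock in C (-0.38 in both) and 4 and 0 for the difference (0.18 in both). In these comparisons limma called 28.8% to 69.3% of all genes. RPKM fold changes are on the log2(value + pseudocount) scale.

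Single genes turned round under library size, RPKM + 1 and RPKM + 0.1, in that order: for skn-1i over rIIS-C pbs-1 (-0.16, -0.25, -0.25), pbs-2 (-0.0026, -0.076, -0.076), pbs-5 (-0.42, -0.48, -0.48) and dss-1 (-0.39, -0.42, -0.42); over daf-16i pbs-5 (-0.12, -0.17, -0.17) and dss-1 (-0.064, -0.13, -0.13); for hsf-1i (HS) pbs-5 (-0.053, -0.015, -0.015) and dss-1 (-0.12, -0.083, -0.084); and for heat shock in C pas-7 (-0.35, -0.42, -0.42). With a trend in exon length removed, dss-1 in skn-1i over rIIS-C was at -0.016, 3 members were lower over rIIS-C and 3 over daf-16i, and 6 were called in the difference, 6 of them lower. The cause of these changes was not tested beyond the scaling itself.

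Scaled to the members' reads, chosen after seeing the data, skn-1i over rIIS-C had 10 called (5 higher, 5 lower), hsf-1i (HS) 5 (3 and 2), rIIS-C (HS) over C (HS) 2 (1 and 1, median 0.026), heat shock in C 9 with 5 higher (median -0.058, pas-7 -0.10) and the difference 5 with 2 higher (median 0.039).

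All 14 libraries in one fit gave 7 called and 6 higher for skn-1i over rIIS-C, 12 and 11 over daf-16i, 4 and 4 for hsf-1i (HS), and 16 called, 1 higher and 15 lower, for rIIS-C (HS) over C (HS). Fitted with their groups alone, skn-1i over rIIS-C had 7 called and 6 higher, rIIS-C (HS) over C (HS) 3 called, 3 lower, heat shock in C 11 called, 11 higher and 0 lower, and the difference 0 called, 0 lower. Without the filter rIIS-C (HS) over C (HS) had 11 called and 1 higher. DESeq2 gave 1 higher there, and 6 called, 6 lower, in the difference. At an unadjusted p under 0.05 with a fold of at least 1.5, skn-1i over rIIS-C had 9 called and 8 higher, over daf-16i 13 and 12, hsf-1i (HS) 7 and 7, rIIS-C (HS) over C (HS) 17 called, 1 higher and 16 lower, and the difference 10 called, 10 lower.

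Leaving out each library gave 0 to 1 called and 0 to 1 higher for rIIS-C over C, 0 for daf-16i and for heat shock in rIIS-C, 8 to 20 called and 7 to 19 higher for skn-1i over rIIS-C, 11 to 19 and 10 to 18 over daf-16i (1 lower throughout both), 4 to 15 called, 4 to 15 higher, for hsf-1i (HS), 0 to 24 called, 0 to 1 higher and 0 to 23 lower for rIIS-C (HS) over C (HS), 12 to 28 called, 11 to 25 higher and 1 to 3 lower for heat shock in C, and 0 to 21 called, 0 to 1 higher and 0 to 20 lower for the difference. Where this leaves 1 library in a group, it is assumed to vary like the others.

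With the replicate number as a block, the members higher and lower were 17 and 1 for skn-1i over rIIS-C, 18 and 1 over daf-16i, 17 and 0 for hsf-1i (HS), 0 and 5 for rIIS-C (HS) over C (HS), 21 and 2 for heat shock in C, 0 and 3 for the difference and 0 and 0 elsewhere. Same-numbered libraries did not deviate together in all pairs of groups (r from -0.388 to 0.334, over 0.1 in 10 of 15). Libraries of the same junction class did in 15 of 15 (r from 0.121 to 0.388). Outside C (HS), replicate 1 was in the low class and replicate 2 in the high class in every group but rIIS-C (HS), where they were swapped. The numbers thus follow the class except in that group. As a block the junction class called 2 members, 2 higher, for heat shock in rIIS-C. It called 22, 21 and 24 higher for skn-1i over rIIS-C, over daf-16i and hsf-1i (HS). The median of the members minus that of all genes changed sign in none of the alternatives for the comparisons with skn-1i, hsf-1i (HS) and C (HS). Alternatives that only rescale the libraries can hardly move this difference. With 2 libraries a group, small differences were not detectable.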
